A study of Rattus norvegicus with 21 samples.

Results

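Messenger RNA of 9 genes of melatonin synthesis and circadian clock output was followed in rat retina across 7 light conditions. The genes were Aanat, Asmt, Dbp, Tef, Hlf, Nfil3, Ciart, Bhlhe40 and Bhlhe41. They were chosen by symbol, 9 of 9 were found among the 19099 genes of the deposited counts table, and 9 of 9 were among the 16006 genes that passed the filter on low counts. The main comparison for Aanat was halogen light at level 1000 against halogen light at level 200. All members were followed across the 7 groups.

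All animals were Sprague Dawley rats, and the tissue was whole retina after 6 months of exposure. An age of 8 months is given for every sample, filed under another label field. The groups were halogen light at level 1000 (Hal1000) and at level 200 (Hal200), blue light at level 1000 (Blue1000) and at level 200 (Blue200), LED light at level 1000 (LED1000) and at level 200 (LED200), and a control group, each with 3 libraries. The design text writes white where the labels write LED, and the names were matched by elimination. No source used here gives the unit of the levels, the light the control animals received or the time of day at which tissue was taken. Whether the 3 libraries of a group stem from different animals is not stated. The p-values therefore rest on the spread between libraries, part of which may be technical.

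Photoreceptors of the retina make melatonin, mainly at night, from serotonin. Aanat encodes the N-acetyltransferase that sets the rhythm of this synthesis, and Asmt encodes the methyltransferase of the last step. The circadian clock passes its timing on through transcription factors that bind short DNA elements. Dbp, Tef and Hlf encode the PAR bZIP activators of the D-box, an element that Nfil3 (E4BP4), a repressor, also binds. Ciart (CHRONO) encodes a repressor of the CLOCK:BMAL1 activator, and Bhlhe40 (DEC1) and Bhlhe41 (DEC2) encode repressors that compete with it for the E-box. Expression of all these genes is known to follow the time of day, so a single collection gives one point of a cycle.

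Promoters of the members are shown because E-boxes are the elements through which the clock acts on several of them. RefSeq promoters of the GRCr8 assembly, from 250 bases before to 50 after a transcript start, were at hand for 8 of the 9 members, Hlf being the exception. Positions are counted from the transcript start that the promoter table uses, with -1 the base before it, and both strands were searched. For Aanat, Tef, Ciart and Bhlhe41 that start lies inside the RefSeq gene span, downstream of its 5′ end. The E-box CACGTG was found in 4 of the 8, in Tef, Ciart, Bhlhe40 and Bhlhe41, and in 6.42% of all 33469 promoters of the same length. Ciart held 3 copies, which begin at -93, -35 and -21. The cAMP response element TGACGTCA was found in Asmt, and in 1.83% of all promoters. The CRX element TAATCC, or its reverse GGATTA, was found in Aanat, and in 7.17% of all promoters. The D-box, searched as TTATGTAA or TTACGTAA, was found in 0 of the 8, and in 1.01% of all promoters. These matches are descriptions of letters and not binding sites. Each line below gives up to 30 bases around a match, read 5′ to 3′ on the gene's strand, with the motif in capitals.
Aanat, CRX element at -106 (chr10:102326205-102326234, plus strand): gcagggccagggGGATTAgaatctctgagc
Asmt, cAMP response element at -243 (chr12:21423557-21423586, minus strand): tgtcattTGACGTCAcaggagacagaagtg
Tef, E-box at -198 (chr7:115206617-115206646, plus strand): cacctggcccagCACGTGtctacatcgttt
Ciart, E-box at -93 (chr2:186112322-186112351, minus strand): tgtatctagagtCACGTGttgccggcaaag
Ciart, E-boxes at -35 and -21 (chr2:186112257-186112286, minus strand): ggaggCACGTGcagagccgCACGTGtctgg
Bhlhe40, E-box at -220 (chr4:143174218-143174247, plus strand): agcgttgtccaaCACGTGagactcatgtga
Bhlhe41, E-box at -48 (chr4:180569386-180569415, minus strand): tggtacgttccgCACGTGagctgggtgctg

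The libraries held 30404774 to 35437448 counts. Genes of the rod list, 16 markers of rod photoreceptors, took 0.0842 to 0.105% of counts in Hal1000 and 3.39 to 5.71% in Hal200. They took 0.0742 to 0.0960% in Blue1000, 0.0859 to 0.0999% in Blue200, 0.0875 to 0.0933% in LED1000 and 0.0991 to 0.287% in LED200, against 6.74 to 7.33% in control. The bipolar cell list, 15 markers of second-order neurons, took 0.414 to 0.448% in Hal1000 and 0.281 to 0.363% in Hal200, and 0.344 to 0.486% across the other light groups, against 0.261 to 0.286% in control. Retinal pigment epithelium markers took 0.0405 to 0.139% in Hal1000, Blue1000, Blue200, LED1000 and LED200, 0.00164 to 0.00810% in Hal200 and 0.00197 to 0.0126% in control. Markers of the lens took 1.09% in Blue200 replicate 1, 0.466% in LED200 replicate 1 and 0.559% in control replicate 3, the 3 called lens-rich here. Blue1000 replicates 1 and 3 held 0.260% and 0.142%, and every other library at most 0.0287%. Hal1000 replicate 3, Blue1000 replicate 3 and LED1000 replicate 2 lay in between the 2 other libraries of their group for nearly all genes in which those 2 differed by more than 1 on the log2 scale. Among genes of at least 10 CPM this held for 100% of 82, 100% of 100 and 98.7% of 154 such genes. Counts of members called without these 3 and without the 3 lens-rich libraries are given with the main counts below. In bulk retina fewer cells of a type and less RNA per cell cannot be told apart.

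**Figure D1:**
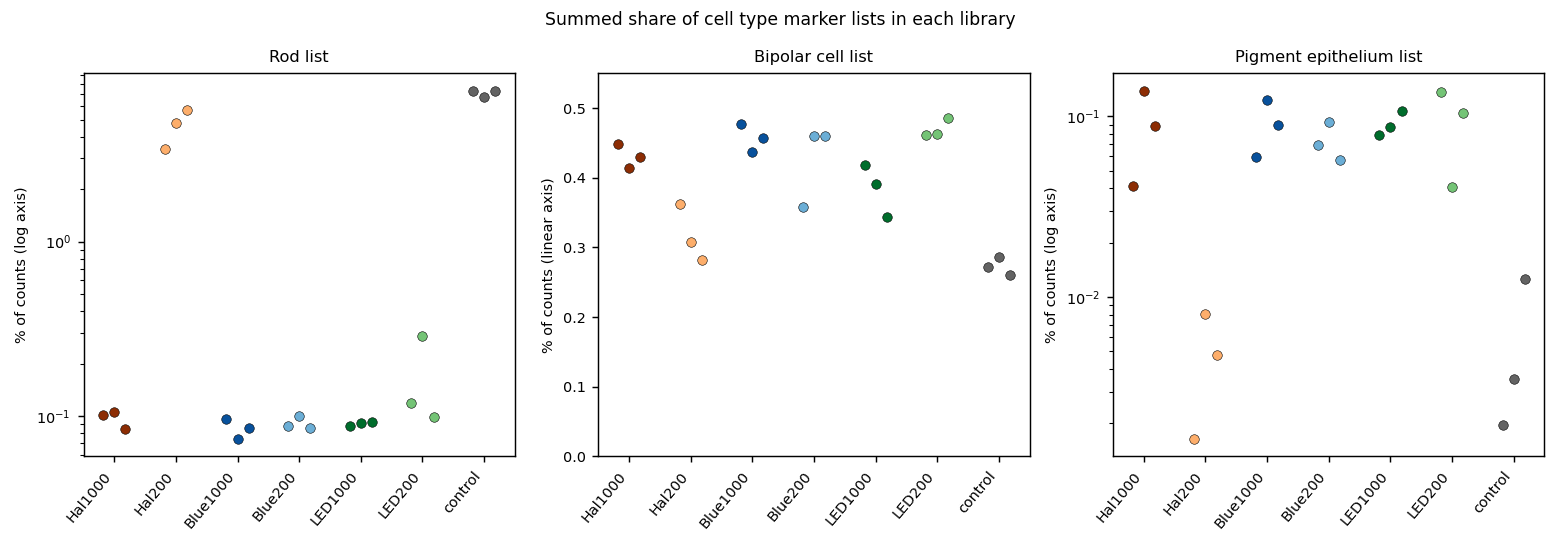
Share of all counts (%, log axis for rods and pigment epithelium, linear axis for bipolar cells) taken by 3 marker lists, with 1 point per library and 7 groups of 3. Rod shares lie at or above 3.39% in Hal200 and control and at or below 0.287% in the other 5 groups, while pigment epithelium shares run the other way, as do bipolar shares apart from an overlap of Hal200 with Blue200 and LED1000.

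Since the summed rod share fell this far, each change is given on 2 scales. The main one is TMM, which holds most genes level. The other sets the 15 bipolar markers level and moves the median gene by -0.63 (log2) for Hal1000, -0.22 for Hal200, -0.64 for Blue1000, -0.57 for Blue200, -0.42 for LED1000 and -0.69 for LED200 against control. It moves the median by -0.41 for Hal1000 against Hal200. A gene that rises under TMM and stays level on the bipolar scale kept its ratio to the bipolar markers. CPM below stands for read counts scaled to library size with the TMM factors, and log2 fold changes are given ± their standard error. A gene is called at an adjusted p (edgeR quasi-likelihood test, Benjamini-Hochberg over 16006 genes) under 0.05.

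Per unit of transcript length, Dbp was the most abundant member, and Aanat the least. Dbp had 118 to 292 FPKM over the 21 libraries, with a median of 218. Tef (31.0 to 58.8 FPKM), Bhlhe40 (23.7 to 50.01 FPKM), Bhlhe41 (26.3 to 52.3 FPKM) and Hlf (15.5 to 32.3 FPKM) followed. Asmt had 5.34 to 12.3 FPKM, Ciart 3.999 to 8.33 FPKM and Nfil3 3.17 to 6.89 FPKM. Aanat had 0.0297 to 2.49 FPKM, from 2 to 171 counts per library, so its values carry the most counting error of the 9. Between the highest and the lowest group mean, Aanat varied 8.34-fold and Asmt 2.04-fold, and the other 7 members 1.38-fold to 1.88-fold.

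**Figure D2:**
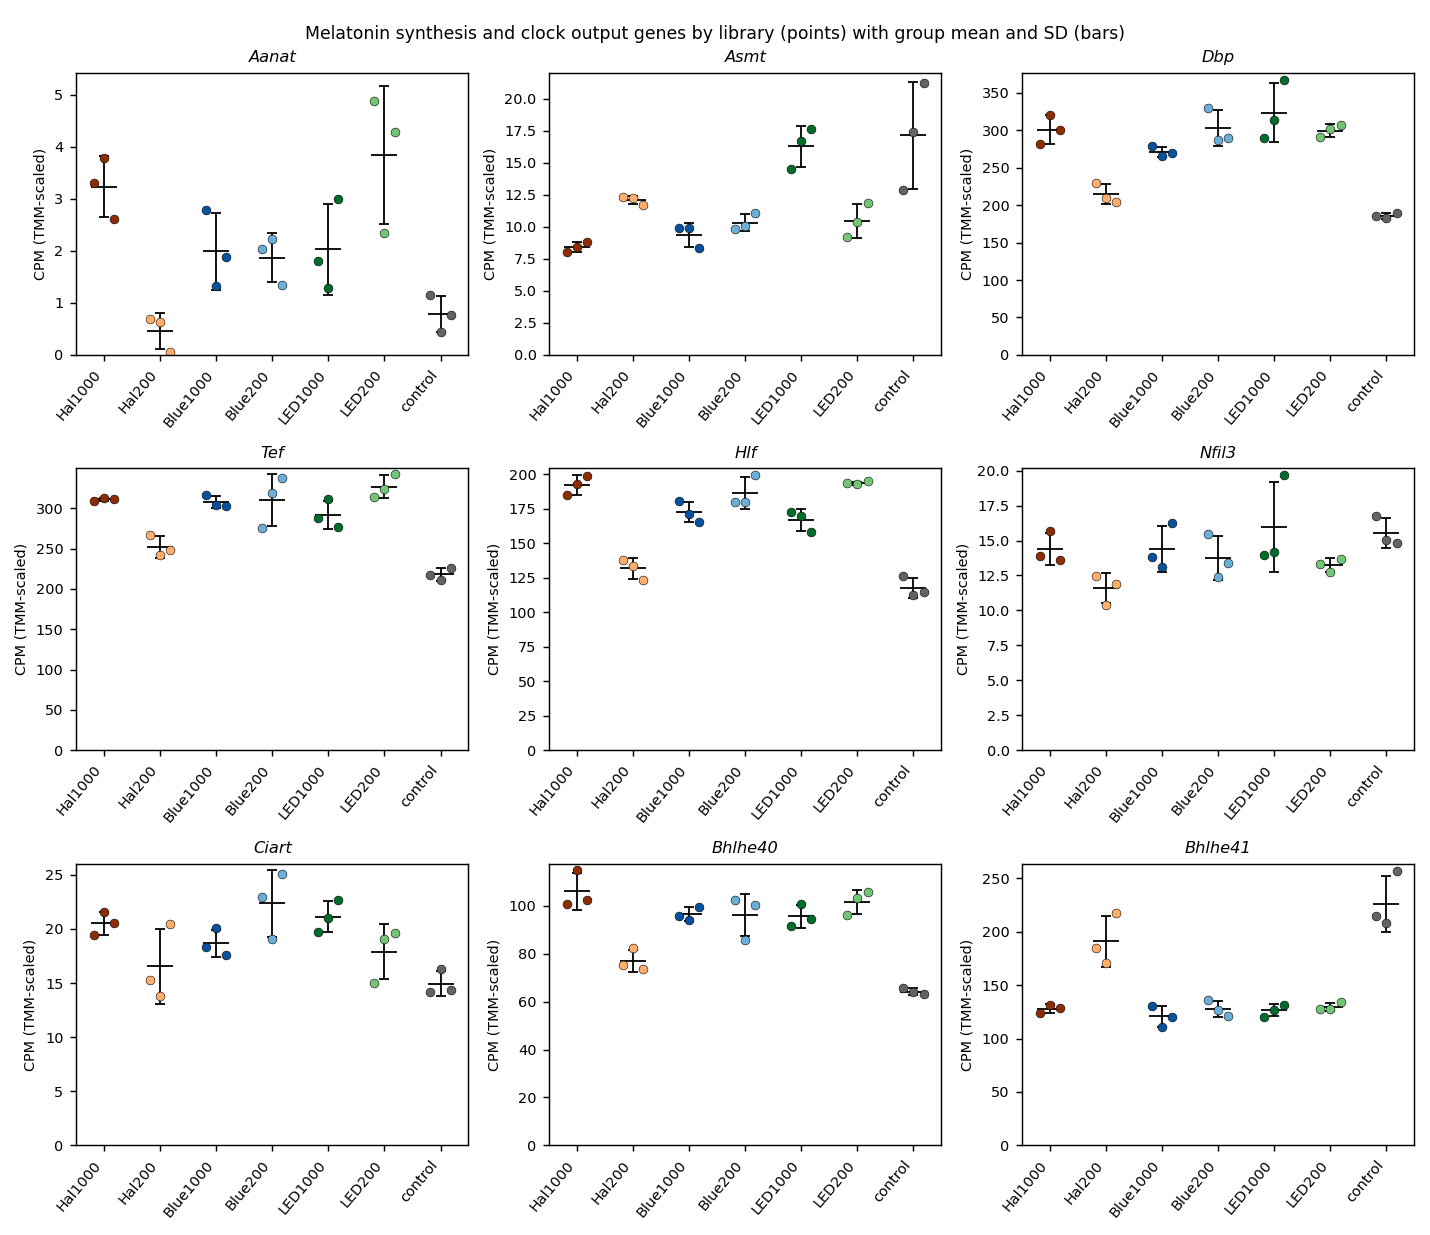
CPM on the TMM scale for each of the 9 members, with 1 point per library and bars for the group mean ± SD (n = 3). Aanat is lowest in Hal200 and control, Bhlhe41 is highest there, and Dbp, Tef, Hlf and Bhlhe40 are lowest in control and next lowest in Hal200.

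Aanat was higher in Hal1000 than in Hal200. It had 3.30, 3.78 and 2.61 CPM in the 3 Hal1000 libraries, from 113, 125 and 92 counts, against 0.684, 0.629 and 0.0662 CPM in the 3 Hal200 libraries, from 22, 21 and 2 counts. Every Hal1000 library exceeded every Hal200 library, and Hal200 replicate 3 was below the others of its group at a count under the floor of 3. The log2 fold change was 2.79 ± 0.55 (95% interval 1.72 to 3.87, 6.93-fold, adjusted p = 0.000545), and on the bipolar scale 2.43 ± 0.54 (adjusted p = 0.000890). Over all alternatives that leave out 1 library the change stayed between 2.30, without Hal200 replicate 3, and 3.18, with adjusted p at most 0.00255. Without the 3 in-between libraries, which include Hal1000 replicate 3, it was 2.93 (adjusted p = 0.00272). This comparison was picked with earlier results of these data known. The pigment epithelium list, with 10 of 10 markers detected in each group, took 0.0410 to 0.139% of counts in Hal1000 and 0.00164 to 0.00810% in Hal200, and its part in the result was not tested.

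Between the levels of blue or of LED light no difference in Aanat was called by edgeR. It had 2.78, 1.32 and 1.87 CPM in Blue1000 and 2.03, 2.23 and 1.34 CPM in Blue200, a log2 fold change of 0.09 ± 0.50 (95% interval -0.89 to 1.07, adjusted p = 0.981). It had 1.80, 1.29 and 2.99 CPM in LED1000 and 4.88, 2.35 and 4.28 CPM in LED200, a log2 fold change of -0.92 ± 0.50 (95% interval -1.89 to 0.05, adjusted p = 0.384), and its libraries overlapped. With voom quality weights the LED difference was -1.37 (adjusted p = 0.0134). The effect of level differed between sources. It was 2.70 ± 0.73 larger on the log2 scale in halogen than in blue light (adjusted p = 0.0124) and 3.71 ± 0.74 larger than in LED light (adjusted p = 0.00131).

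Against control, with 1.14, 0.450 and 0.777 CPM, Aanat rose in Hal1000 by 2.03 ± 0.53 (log2, adjusted p = 0.00305) and in LED200 by 2.27 ± 0.53 (adjusted p = 0.00134). Both were called on the bipolar scale as well, at 1.39 ± 0.52 (adjusted p = 0.0252) and 1.57 ± 0.52 (adjusted p = 0.0122). Blue1000 and LED1000 passed narrowly under TMM, at 1.33 ± 0.52 (adjusted p = 0.0393) and 1.35 ± 0.52 (adjusted p = 0.0356). Neither was called on the bipolar scale (adjusted p = 0.283 and 0.136). The Blue1000 call was also lost without Blue1000 replicate 1 (1.01, adjusted p = 0.155), Blue1000 replicate 3, control replicate 2 or control replicate 3 (adjusted p = 0.0630 to 0.149). The LED1000 call was lost without LED1000 replicate 3 (0.96, adjusted p = 0.167), control replicate 2 or control replicate 3 (adjusted p = 0.0756 to 0.138). Blue200 differed by 1.24 ± 0.52 (adjusted p = 0.0539) and Hal200 by -0.77 ± 0.56 (adjusted p = 0.393), neither past the threshold. Blue200 was called with DESeq2, both FPKM scales and voom quality weights (adjusted p = 0.0153 to 0.0320), and without Blue200 replicate 3, control replicate 1, Hal200 replicate 3 or LED1000 replicate 3 (adjusted p = 0.0162 to 0.0499). In order of mean level LED200 (3.83 ± 1.32 CPM, SD, n = 3) came first, then Hal1000 (3.23 ± 0.585 CPM), LED1000 (2.03 ± 0.871 CPM), Blue1000 (1.99 ± 0.735 CPM), Blue200 (1.87 ± 0.469 CPM), control (0.791 ± 0.348 CPM) and Hal200 (0.460 ± 0.342 CPM). Neighbours in this order overlapped in their libraries, apart from Blue200 and control.

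Asmt, which acts after Aanat, fell in 5 of the 6 light groups under TMM and in all 6 on the bipolar scale. It had 8.06, 8.40 and 8.78 CPM in Hal1000 and 12.3, 12.2 and 11.7 CPM in Hal200, against 12.9, 17.4 and 21.2 CPM in control. In Hal1000 it was -1.03 ± 0.15 (log2) against control (adjusted p = 1.10e-05) and -0.52 ± 0.15 against Hal200 (adjusted p = 0.0102), with no overlap in either pair. With the bipolar markers level these falls were -1.66 ± 0.18 (adjusted p = 5.67e-08) and -0.93 ± 0.17 (adjusted p = 0.000162). Asmt also fell in Blue1000, with 9.92, 9.88 and 8.32 CPM (-0.87 ± 0.15, adjusted p = 6.83e-05), in Blue200, with 9.84, 10.1 and 11.1 CPM (-0.73 ± 0.15, adjusted p = 0.000394), and in LED200, with 9.21, 10.3 and 11.8 CPM (-0.71 ± 0.15, adjusted p = 0.000517). Every library of these 3 groups lay below every control library. The fall in Hal200 (-0.50 ± 0.15, adjusted p = 0.0344) was lost without control replicate 2, control replicate 3, Hal200 replicate 1 or Hal200 replicate 2 (adjusted p = 0.0866 to 0.120), and without control replicate 3 its size was -0.34. The call was also lost with only the compared groups, on both FPKM scales, with voom quality weights, and without the lens-rich or the in-between libraries (adjusted p = 0.0706 to 0.164).

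LED1000 stood apart for Asmt, with 14.5, 16.7 and 17.6 CPM, inside the range of control. The log2 fold change against control was -0.07 ± 0.15 (95% interval -0.36 to 0.21, adjusted p = 0.694) under TMM and -0.50 ± 0.17 (adjusted p = 0.0185) on the bipolar scale, where the median gene stood at -0.35. All 3 LED1000 libraries exceeded all 3 LED200 libraries. That difference, 0.64 ± 0.15, was not called by edgeR (adjusted p = 0.122) and was called by DESeq2 (0.63, adjusted p = 0.0101) and on the bipolar scale (0.92 ± 0.17, adjusted p = 0.0136). The level effects in halogen and LED light had opposite signs, and their difference was -1.16 ± 0.21 (adjusted p = 0.000641). Halogen and blue light differed by -0.38 ± 0.21 (adjusted p = 0.217).

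Dbp, the PAR bZIP gene with the highest FPKM, rose under TMM in 5 of the 6 light groups. It had 282, 320.1 and 299.8 CPM in Hal1000 and 229.7, 209.9 and 204 CPM in Hal200, against 185, 182 and 189.8 CPM in control. It had 278, 265 and 269 CPM in Blue1000, 329.9, 287 and 289.7 CPM in Blue200, 289.8, 313 and 367 CPM in LED1000 and 290.2, 301 and 307 CPM in LED200. Every light library lay above every control library, those of Hal200 included. The log2 fold change against control was 0.69 ± 0.08 in Hal1000 (adjusted p = 7.12e-07), 0.80 ± 0.08 in LED1000 and 0.54 ± 0.08 in Blue1000, with Blue200 and LED200 between these, and 0.21 ± 0.08 in Hal200 (adjusted p = 0.0979), which did not pass. Hal1000 exceeded Hal200 by 0.49 ± 0.08 (adjusted p = 0.000109). On the bipolar scale Dbp was called in LED1000 alone among these comparisons (0.38 ± 0.12, adjusted p = 0.0125). The other values there ran between -0.10 ± 0.12 in Blue1000 and 0.14 ± 0.12 in Blue200, and Hal1000 against Hal200 was 0.08 ± 0.12 (adjusted p = 0.638).

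Tef and Hlf, the other PAR bZIP activators, also rose under TMM in 5 of the 6 light groups, but their smallest rise was in LED1000, where Dbp had its largest. Tef had 309, 313 and 312 CPM in Hal1000 and 267, 242 and 248 CPM in Hal200, against 217, 210.5 and 226 CPM in control. Hlf had 185, 193 and 199 CPM in Hal1000 and 138, 134 and 123 CPM in Hal200, against 126, 113 and 115 CPM in control. Hal1000 libraries lay above those of both other groups for each gene, and only Hlf overlapped between Hal200 and control. In the blue and LED groups Tef had 275 to 343 CPM and Hlf 158 to 199.7 CPM, all above control. Both were called higher than control in Hal1000, Blue1000, Blue200, LED1000 and LED200, with log2 fold changes between 0.42 ± 0.07 in LED1000 and 0.59 ± 0.07 in LED200 for Tef, and between 0.50 ± 0.07 in LED1000 and 0.72 ± 0.07 in LED200 for Hlf. Neither passed in Hal200 (Tef 0.21 ± 0.07, adjusted p = 0.0625, and Hlf 0.16 ± 0.07, adjusted p = 0.120). Hal1000 exceeded Hal200 by 0.30 ± 0.07 for Tef (adjusted p = 0.00265) and by 0.54 ± 0.07 for Hlf (adjusted p = 3.57e-06). With the bipolar markers level neither was called in any comparison with control or in Hal1000 against Hal200. Tef then lay between -0.15 ± 0.08 in Blue1000 and -0.00337 in LED1000, its sign turned in all 6 light groups, and Hlf lay between -0.09 ± 0.08 in Blue1000 and 0.09 ± 0.08 in Blue200.

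Nfil3, the repressor at the D-box, was not called by edgeR in any of the 12 comparisons under TMM. It had 13.9, 15.7 and 13.6 CPM in Hal1000 and 12.5, 10.4 and 11.9 CPM in Hal200, against 16.8, 15.03 and 14.8 CPM in control. It had 12.4 to 19.7 CPM in the blue and LED groups, a range that took in control. Hal200 was below control in every library, with a log2 fold change of -0.42 ± 0.14 (adjusted p = 0.0501), and DESeq2 called it (-0.44, adjusted p = 0.0252). On the bipolar scale Nfil3 fell in 5 light groups, from -0.92 ± 0.18 in LED200 (adjusted p = 9.84e-05) to -0.65 ± 0.18 in Hal200 (adjusted p = 0.0172), and LED1000 did not pass (-0.37 ± 0.17, adjusted p = 0.0815). The median gene on that scale stood at -0.64 in LED200 and -0.23 in Hal200, with 57% and 17.5% of all genes called lower. Much of the fall of Nfil3 in LED200 was thus shared by the median gene.

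Ciart, the gene with 3 E-boxes in its promoter window, had 19.5, 21.5 and 20.5 CPM in Hal1000 and 15.3, 13.8 and 20.5 CPM in Hal200, against 14.2, 16.3 and 14.3 CPM in control. Hal200 overlapped with both other groups, and its replicate 3 stood above the other 2. In Blue200 Ciart had 22.9, 19.0 and 25.1 CPM, in LED1000 19.7, 21.03 and 22.6 CPM, and 15.03 to 20.1 CPM in Blue1000 and LED200 together. Under TMM Ciart rose against control in Hal1000 (0.46 ± 0.14, adjusted p = 0.00905), Blue200 (0.58 ± 0.14, adjusted p = 0.00163) and LED1000 (0.50 ± 0.14, adjusted p = 0.00495). Blue1000 (0.32 ± 0.14, adjusted p = 0.0574), LED200 (0.26 ± 0.14, adjusted p = 0.123) and Hal200 (0.15 ± 0.14, adjusted p = 0.528) did not pass, nor did Hal1000 against Hal200 (0.31 ± 0.14, adjusted p = 0.0901). None of the 3 rises was called on the bipolar scale, where Hal1000 turned to -0.17 ± 0.17, and LED200 was called lower at -0.43 ± 0.17 (adjusted p = 0.0353). The median gene in LED200 stood lower still on that scale, at -0.64.

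Bhlhe40 and Bhlhe41, a pair of paralogues that bind the same E-box, went in opposite directions under TMM. Bhlhe40 had 101, 115 and 103 CPM in Hal1000 and 75.2, 82.2 and 73.9 CPM in Hal200, against 65.6, 64.1 and 63.1 CPM in control. Bhlhe41 had 124, 132 and 128 CPM in Hal1000 and 185, 171 and 218 CPM in Hal200, against 214, 208 and 257 CPM in control. Hal1000 did not overlap with Hal200 or control for either gene, while Hal200 and control overlapped for Bhlhe41. In the blue and LED groups Bhlhe40 had 86.0 to 106 CPM, all above control, and Bhlhe41 111 to 136 CPM, all below it. Bhlhe40 rose by 0.72 ± 0.08 in Hal1000 against control (adjusted p = 1.66e-07) and by 0.46 ± 0.07 against Hal200 (adjusted p = 8.32e-05). With the bipolar markers level these were 0.10 ± 0.12 and 0.05 ± 0.12, and Bhlhe40 was called there in no comparison. Its TMM changes in the blue and LED groups were all called and ran between 0.57 ± 0.08 in LED1000 and 0.66 ± 0.08 in LED200. The Hal200 call (0.26 ± 0.08, adjusted p = 0.0295) was lost without any of the 3 control libraries, Hal200 replicate 1 or Hal200 replicate 2 (adjusted p = 0.0681 to 0.144).

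Bhlhe41 fell on both scales. Under TMM it was -0.82 ± 0.09 in Hal1000 (adjusted p = 3.62e-07), -0.91 ± 0.09 in Blue1000 (adjusted p = 1.21e-07) and -0.80 ± 0.09 in LED200, with Blue200 and LED1000 between, against control. Hal200 differed by -0.24 ± 0.09 (adjusted p = 0.0841), which did not pass, and Hal1000 was lower than Hal200, at -0.58 ± 0.09 (adjusted p = 5.85e-05). All 6 light groups were called on the bipolar scale, from -1.56 ± 0.14 in Blue1000 to -0.46 ± 0.14 in Hal200 (adjusted p = 0.0235), and Hal1000 against Hal200 was -0.99 ± 0.14 (adjusted p = 5.52e-06). The median gene on that scale stood at -0.61 in Blue1000 and -0.23 in Hal200. The rod share, 0.0842 to 0.105% in Hal1000 and 3.39 to 5.71% in Hal200, against 6.74 to 7.33% in control, moved with Bhlhe41, and its part in the result was not tested.

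**Figure D3:**
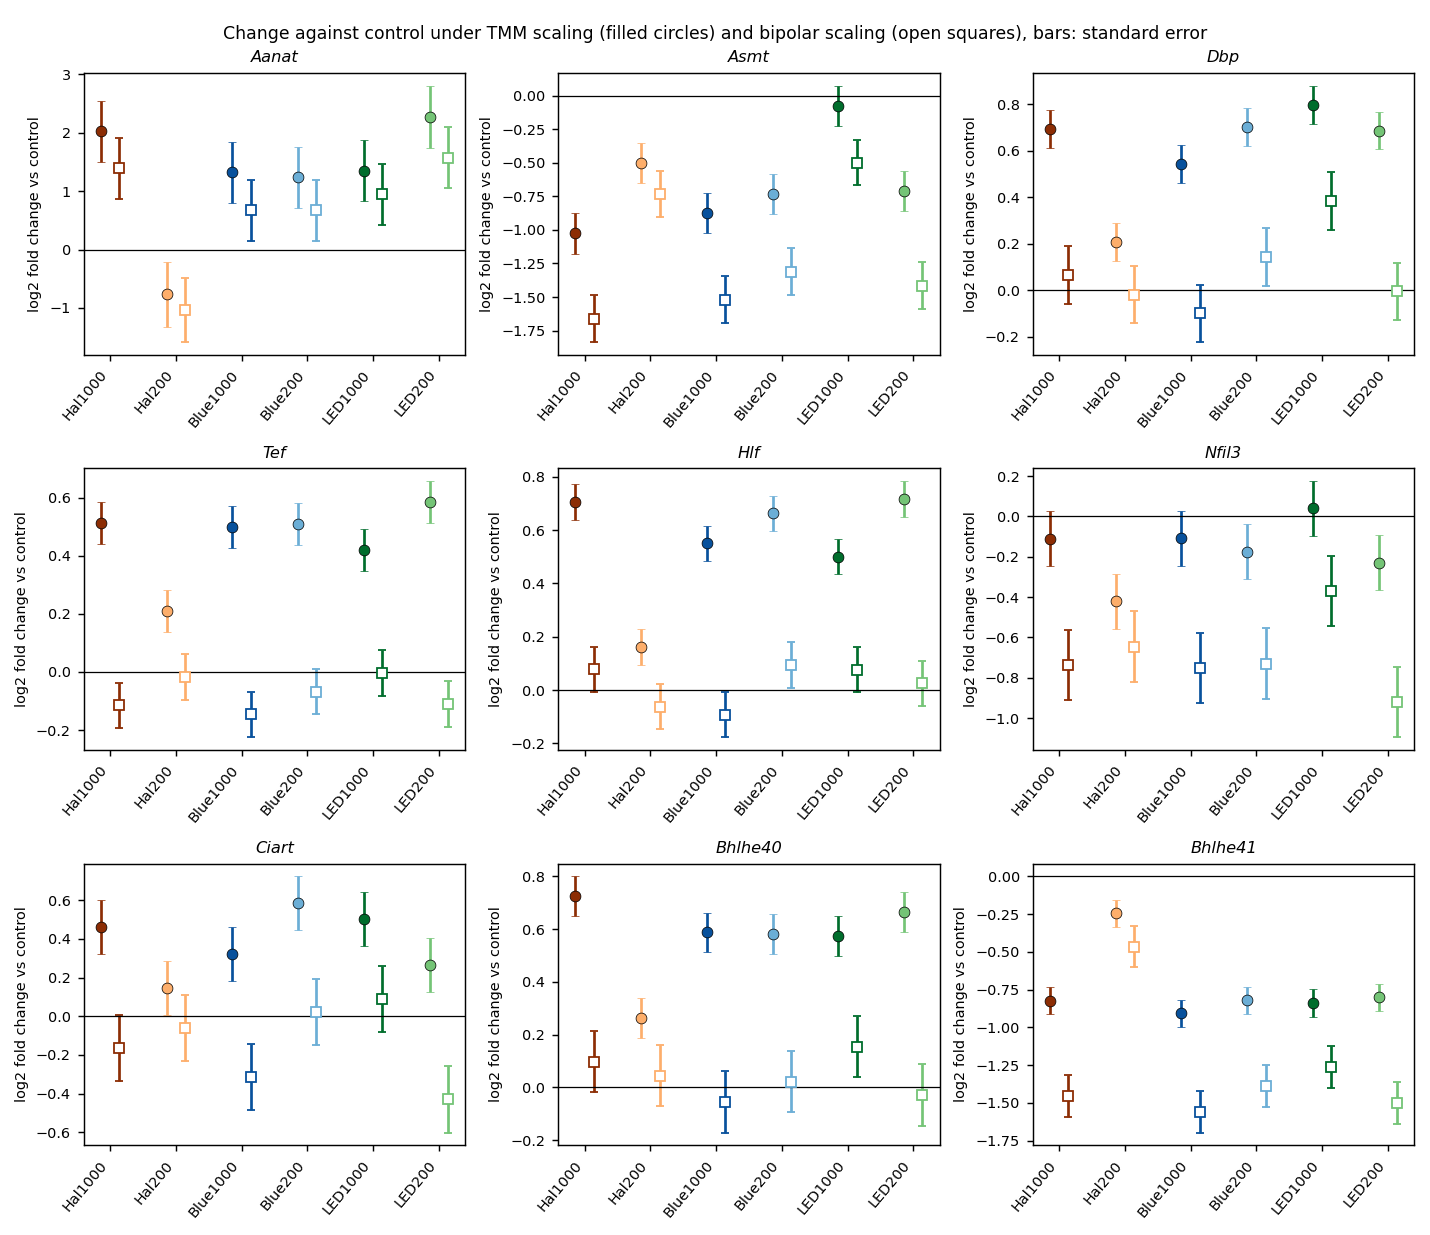
Log2 fold change against control (± standard error) for each member in the 6 light groups, under TMM (filled circles) and on the scale that holds 15 bipolar markers level (open squares). Bhlhe41 and Asmt lie below 0 on both scales in every light group and Aanat above 0 in every light group but Hal200, whereas Dbp, Tef, Hlf, Ciart and Bhlhe40 lie above 0 under TMM. On the bipolar scale Tef lies below 0 in every light group, and Dbp, Hlf, Ciart and Bhlhe40 lie on both sides of 0, with Dbp in LED1000 the highest of them at 0.38 ± 0.12.

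Ratios of 2 members within a library do not depend on scaling. The FPKM ratio of Bhlhe41 to Bhlhe40 was 0.664, 0.620 and 0.678 in Hal1000 and 1.33, 1.13 and 1.60 in Hal200, against 1.77, 1.76 and 2.20 in control. It was 0.641 to 0.801 in the 12 libraries of the blue and LED groups. By FPKM the 2 genes thus changed places in rank, Bhlhe41 being the higher in all 6 libraries of Hal200 and control and the lower in the other 15. Hal200 lay between the rest with no overlap. The change of rank rests on the gene lengths behind FPKM, 4386 bases for Bhlhe41 and 2376 for Bhlhe40. By counts Bhlhe41 was the higher in every library, as in Hal1000 replicate 1 with 4233 against 3452. The ratio of Dbp to Nfil3, activator to repressor at the D-box, was 46.2 to 50.1 in Hal1000, 39.1 to 45.9 in Hal200 and 37.7 to 53.7 in the blue and LED groups, against 25.2 to 29.2 in control. Here all 18 light libraries, those of Hal200 included, lay above control. The ratio of Aanat to Asmt was 0.315, 0.346 and 0.229 in Hal1000 and 0.0426, 0.0395 and 0.00435 in Hal200, against 0.0685, 0.0199 and 0.0282 in control. It was 0.0931 to 0.215 in the blue groups, 0.0596 to 0.131 in LED1000 and 0.174 to 0.407 in LED200. Hal200 and control overlapped, LED1000 overlapped with control, and Hal1000, LED200 and both blue groups did not. These ratios were given no test.

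**Figure D4:**
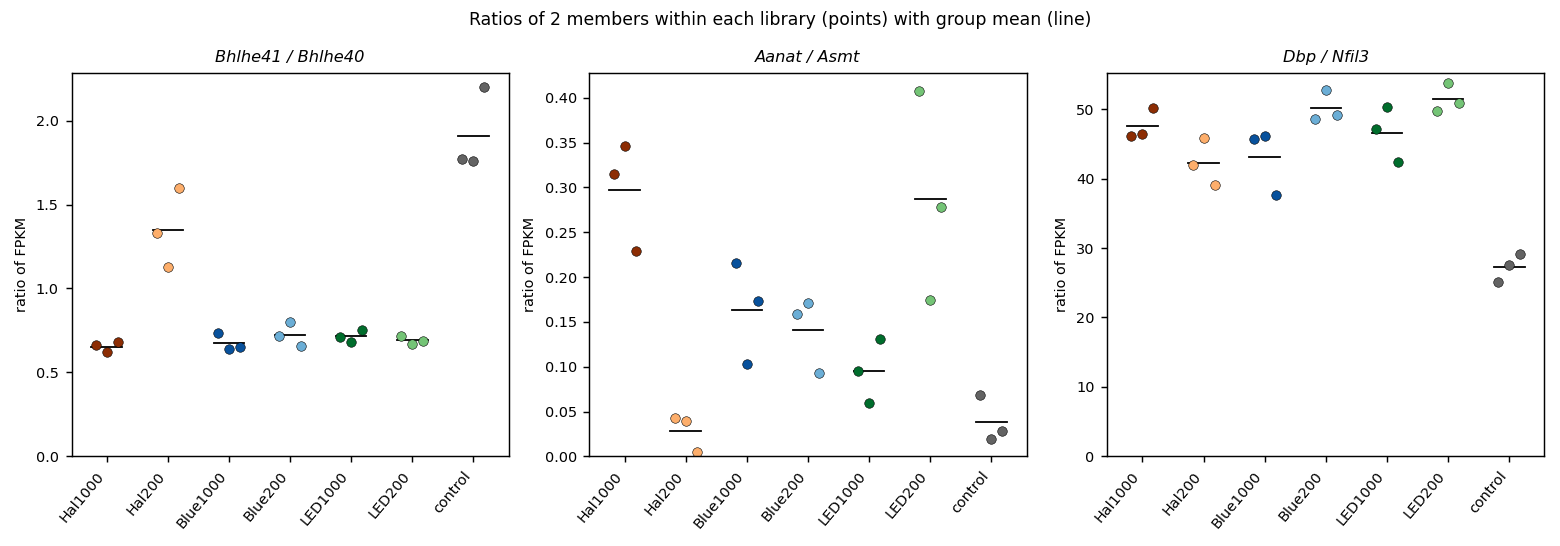
FPKM ratio of Bhlhe41 to Bhlhe40, Aanat to Asmt and Dbp to Nfil3 in each library (points) with the group mean (line), in 7 groups of 3. Bhlhe41 to Bhlhe40 lies at or below 0.801 in 5 groups and at or above 1.13 in Hal200 and control, and Dbp to Nfil3 is at most 29.2 in control and at least 37.7 elsewhere.

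**Figure D5:**
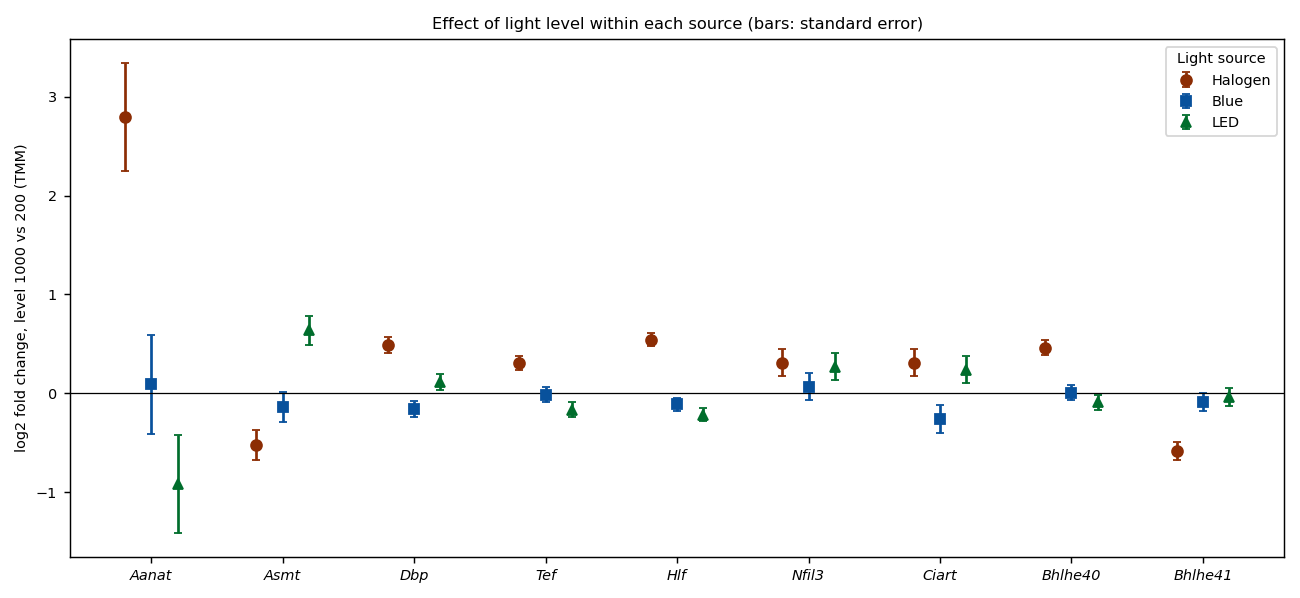
Log2 fold change of level 1000 against 200 (TMM, ± standard error) for each member in halogen (circles), blue (squares) and LED light (triangles). Aanat at 2.79 in halogen light is the largest effect. In halogen light 7 of the 9 members were called (3 on the bipolar scale, where Tef turned to -0.10 ± 0.08). There 16.5% of all genes were called higher and 18.4% lower (1.74% and 44.1% on the bipolar scale). In blue or LED light 0 members were called, beside 0.0125% and 0.0687% of all genes. On the bipolar scale 1 member was called higher in LED light, beside 6.76% of all genes.

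Most members were called where most expressed genes were called, so the counts are read against the background. In Hal1000 against control 6 of 9 members were called higher and 2 lower, while 27.3% of all genes were called higher and 26.8% lower. In Hal200 1 member was called higher and 1 lower, against 7.25% and 4.6% of genes. In Blue1000 and in Blue200 alike 5 were higher and 2 lower, with 27.4% and 26.9% of genes called higher and lower in Blue1000 and 27.7% and 25.8% in Blue200. In LED1000 6 were higher and 1 lower, against 27.7% and 26.8% of genes. In LED200 5 were higher and 2 lower, against 26.5% and 25.7%. Under TMM the 5 or 6 of 9 called higher in each group but Hal200 were a larger share than the background. The number called lower was 1 or 2 in each group. The members were chosen with earlier results of these data known, so the larger share is no test of the set. The median member stood at 0.51 in Hal1000, 0.15 in Hal200 and 0.50 to 0.59 in the blue and LED groups, where the median of all genes was -0.01 to 0.08. The 6 comparisons share the control libraries.

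Most calls on the bipolar scale were lower. A single member was called higher in Hal1000 (5.22% of all genes), LED1000 (8.56%) and LED200 (2.74%) against control, and 0 in Hal200 (1.74%), Blue1000 (4.76%) and Blue200 (4.65%). Called lower were 3 members in Hal1000 (54.8% of genes), 3 in Hal200 (17.5%), 3 in Blue1000 (55.2%), 3 in Blue200 (50.8%), 2 in LED1000 (43.6%) and 4 in LED200 (57%). Asmt and Bhlhe41 were among the members called lower in all 6. For Hal1000 against Hal200 1 member, Aanat, was called higher and 2, Asmt and Bhlhe41, lower, against 1.74% and 44.1% of genes.

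Members differed between the 2 levels in halogen light, where the rod share differed as well, and its part was not tested. Under TMM 5 of 9 were higher and 2 lower in Hal1000 than in Hal200, with 16.5% and 18.4% of genes called higher and lower, and Nfil3 and Ciart were not called. In blue light 0 of 9 members were called between levels by edgeR, with 0 at an unadjusted p under 0.05 and 0 by DESeq2, and 0.0125% of genes were called. In LED light 0 were called by edgeR, with 3 at an unadjusted p under 0.05 and 1, Asmt, by DESeq2, and 0.0687% of genes were called. The difference between the level effects in halogen and blue light was called for 7 members, 6 higher and 1 lower (8.75% and 11.9% of genes). That between halogen and LED light was called for 7, 5 higher and 2 lower (10.4% and 11% of genes). With the bipolar markers level 2 members, Aanat and Hlf, were higher and 2, Asmt and Bhlhe41, lower for halogen minus blue (0.962% and 25.8% of genes), and 1, Aanat, was higher and 4, Asmt, Bhlhe41, Ciart and Nfil3, lower for halogen minus LED (0.662% and 52.9%). On that scale 1 member, Asmt, was higher and 0 lower in LED1000 against LED200 (6.76% and 0.125%). Under TMM some difference between the 7 groups was called for 8 members, all but Nfil3, and for 54.5% of genes. Without the 3 in-between libraries the members called numbered 8 in Hal1000, 0 in Hal200 (7 at an unadjusted p under 0.05), 6 in Blue1000, 7 in Blue200, 7 in LED1000 and 7 in LED200 against control, 7 in Hal1000 against Hal200, and 4 and 6 for the differences in level effect from blue and LED light. Without the 3 lens-rich libraries they numbered 8, 3, 6, 7, 6 and 7 in that order of groups, 7 in Hal1000 against Hal200, and 6 and 7.

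By the root mean square difference of 7 centred group means (log2 CPM), the genes most like Aanat among those with a mean of at least 1 CPM were LOC103691288 (0.262), Sfrp1 (0.369), Trabd2b (0.382) and Tc2n (0.382), where the spread of Aanat itself was 1.05. Each of these was lowest in Hal200, as Aanat was, which a choice by likeness to Aanat favours. Sfrp1 encodes a secreted antagonist of Wnt signalling. For Dbp the closest were Pde3b (0.0174), LOC102555659 (0.0247), LOC691995 (0.0262), Glb1 (0.0289) and Nrsn2 (0.0293), where the spread of Dbp was 0.276. Pde3b encodes a cyclic nucleotide phosphodiesterase and Glb1 the lysosomal beta-galactosidase.

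Other genes of the pathway were taken from lists. Of 14 genes of melatonin precursors, receptors and breakdown 11 were tested, and 5 were called higher and 0 lower in Hal1000 against Hal200 under TMM, with a median of 0.35 beside 0.02 for all genes and 0 called on the bipolar scale. Of all genes 16.5% were called higher and 18.4% lower in this comparison under TMM, and 1.74% and 44.1% on the bipolar scale, the shares against which the counts of the further lists are read. Monoamine oxidase A, which breaks down serotonin, had 37.0 ± 2.83 CPM in Hal1000 and 27.9 ± 4.36 CPM in Hal200, against 23.3 ± 0.678 CPM in control (Maoa, SD, n = 3). It was 0.68 ± 0.09 (log2) in Hal1000 against control (adjusted p = 5.90e-06) and 0.05 on the bipolar scale. Tph2, the neuronal enzyme that begins serotonin synthesis, had 5.20 ± 0.498 CPM in Hal1000 and 3.01 ± 0.503 CPM in Hal200, against 2.53 ± 0.697 CPM in control, and was called higher in Hal1000 against both, by 1.05 ± 0.23 (adjusted p = 0.000667) and 0.73 ± 0.22 (adjusted p = 0.0165). Neither was called on the bipolar scale (0.41 and 0.32). Maob, the second monoamine oxidase, and Qdpr, which renews the cofactor of tryptophan hydroxylase, were called higher in Hal1000 against control at 0.93 ± 0.19 and 0.46 ± 0.11 and not called on the bipolar scale. The melatonin receptor genes Mtnr1a and Mtnr1b reached at most 8 and 4 counts in any library and were not tested.

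Of 30 genes that act on Aanat 29 were tested, and 15 were called higher and 8 lower in Hal1000 against Hal200 (median 0.22), beside 16.5% and 18.4% of all genes. The bipolar scale gave 1 higher and 12 lower, a share of lower calls near the 44.1% of all genes. Crx, the photoreceptor homeobox factor whose element is shown for the Aanat promoter, had 73.0 ± 3.16 CPM in Hal1000 and 395 ± 86.7 CPM in Hal200, against 539 ± 16.9 CPM in control. It fell in Hal1000 against Hal200, with -2.51 ± 0.16 (log2, adjusted p = 1.15e-09) under TMM and -2.94 on the bipolar scale. Drd4, a dopamine receptor of photoreceptors, had 17.3 ± 1.08 CPM in Hal1000 and 117 ± 17.0 CPM in Hal200, against 179 ± 25.8 CPM in control, with -2.83 ± 0.20 for Hal1000 against Hal200 (adjusted p = 6.55e-09). Neurod1 and Otx2, further transcription factors of photoreceptors, were at -1.75 ± 0.12 (adjusted p = 1.93e-09) and -1.09 ± 0.13 (adjusted p = 1.77e-06) in that comparison. All 4 were lower on both scales in the group in which Aanat was higher, and the rod list moved with them. These 4 were named for the smallest adjusted p in the test for any difference among groups, and do not stand for their list. Under TMM more genes of the list were called higher (15) than lower (8) in Hal1000 against Hal200, and on the bipolar scale fewer (1 against 12).

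Of 23 core clock genes 21 were tested, and 2 were called higher and 4 lower in Hal1000 against Hal200 (median -0.14), beside 16.5% and 18.4% of all genes, and 0 and 15 on the bipolar scale, beside 1.74% and 44.1%. Against control 3 were higher and 9 lower in Hal1000, beside 27.3% and 26.8% of all genes. Arntl (BMAL1), the partner of CLOCK, had 60.1 ± 1.98 CPM in Hal1000 and 136 ± 25.7 CPM in Hal200, against 225 ± 16.8 CPM in control. It was -1.90 ± 0.11 in Hal1000 against control (adjusted p = 1.66e-10), -1.25 ± 0.11 against Hal200 (adjusted p = 7.30e-08), and -0.65 ± 0.11 in Hal200 against control (adjusted p = 0.00212). Per1, a repressor of that pair, had 81.9 ± 1.41 CPM in Hal1000 and 135 ± 19.0 CPM in Hal200, against 151 ± 16.8 CPM in control, and fell in Hal1000 against both, with -0.87 ± 0.12 (adjusted p = 5.32e-06) and -0.79 ± 0.12 (adjusted p = 4.02e-05). Rora, a nuclear receptor that activates Arntl, fell in Hal1000 against Hal200 (-0.69 ± 0.09, adjusted p = 8.59e-06). Arntl, Per1 and Rora were lower on both scales. Nr1d1 (REV-ERB alpha), the repressor of Arntl, was higher in Hal1000 against control under TMM (0.48 ± 0.07, adjusted p = 4.92e-06) and at -0.15 on the bipolar scale.

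Of 22 other clock output genes 21 were tested, and 6 were called higher and 4 lower in Hal1000 against Hal200 (median 0.11), beside 16.5% and 18.4% of all genes, and 2 and 7 on the bipolar scale, beside 1.74% and 44.1%. Ppara, a nuclear receptor of fatty acid metabolism, had 6.52 ± 1.36 CPM in Hal1000 and 111 ± 51.5 CPM in Hal200, against 188 ± 47.9 CPM in control (-4.16 ± 0.36 between the halogen levels, adjusted p = 2.55e-07). Usp2, a deubiquitinase, was at -1.39 ± 0.13 (adjusted p = 1.22e-07) and the cold-inducible RNA-binding gene Cirbp at -0.61 ± 0.12 (adjusted p = 0.000656) in this comparison. Wee1, a kinase that holds back mitosis, rose by 0.49 ± 0.09 (adjusted p = 0.000334) under TMM, with 0.09 on the bipolar scale. Of 20 relatives of the bZIP and bHLH members 19 were tested, with 1 higher and 3 lower in Hal1000 against Hal200 (median 0.16), and 0 and 7 on the bipolar scale, beside the same shares of all genes. Cebpd, a bZIP factor of the acute phase, had 54.4 ± 4.30 CPM in Hal1000 and 37.2 ± 14.8 CPM in Hal200, against 13.3 ± 1.28 CPM in control. It rose on both scales in each light group against control, Hal200 included (1.54 ± 0.24, adjusted p = 0.00147). Atf4, a bZIP factor of the integrated stress response, was at -0.95 ± 0.12 (adjusted p = 3.55e-06) in Hal1000 against Hal200, and the Notch effectors Hes5 and Heyl at -1.34 ± 0.41 (adjusted p = 0.0149) and -0.54 ± 0.12 (adjusted p = 0.00130), all lower on the bipolar scale as well.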

How the data were processed

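RNA of 21 retinal libraries in 7 groups of 3 was analysed. Per the labels' protocols, they were made with the VAHTS Universal V6 kit. What the authors deposited are whole-number counts for 19099 genes and FPKM values for the same genes. The deposited FPKM could be rebuilt from the counts, the library totals and a single length for each gene (to within 0.001 bases of a whole number), so they add no separate measurement. Per the submitters' processing notes R 3.2.0 was used. Not given in the sources used here were the aligner, the counter, the strand setting and the genome build, so that reads of overlapping or antisense genes cannot be told apart.

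Group means over all 21 libraries were fitted with edgeR 4.0.16 (R 4.3.3, TMM, robust quasi-likelihood F-test, two-sided). Filtering by expression (minimum count 10, minimum total 15) left 16006 genes, over which p-values were adjusted by Benjamini-Hochberg at a threshold of 0.05. The code was tested on simulated data. There were 12 comparisons: every light group with control, level 1000 with 200 for each source, the halogen level effect minus the blue and minus the LED level effect, and any difference among groups. A floor of 3 counts is 0.0847 to 0.0987 CPM and covers counting error only.

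Other settings tried were DESeq2 (1.42.0), edgeR with DESeq2 size factors, no expression filter, a fit on the compared groups only, a replicate block, limma-trend (3.58.1) on log2(FPKM + 1) and log2(FPKM + 0.1), voom with quality weights, scaling to 15 bipolar cell markers, and fits without 3 lens-rich libraries, without 3 in-between libraries or without 1 library at a time. Members and lists were chosen with earlier results of these data known. Genes named in the text are the 9 members, at most 4 called members of each further list with the smallest adjusted p in the 7-group test, and the 5 genes most like Aanat and most like Dbp. Of the genes this rule names, 1 of those most like Aanat and the single marker genes are not reported here. Mtnr1a and Mtnr1b, below the filter, were named after their values were seen.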

Additional observations from a re-analysis of the deposited data

Results flagged for a closer look

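The effect of light level differed between halogen and another source in 7 of the 9 members for blue light and in 7 for LED light, by an interaction term in the edgeR quasi-likelihood fit with Benjamini-Hochberg adjustment over all genes. The values are log2 fold changes of level 1000 over 200 in halogen light minus those in the other source. Of all genes 8.75% were called higher and 11.9% lower for blue light, and 10.4% and 11% for LED light. In Hal200 the rod list held 3.39 to 5.71% of counts, against at most 0.287% in each other light group, and all 14 differences use the Hal200 libraries. The part of the rod share in them was not tested.

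Aanat had the largest differences, 2.70 ± 0.73 from blue light (adjusted p = 0.0124) and 3.71 ± 0.74 from LED light (adjusted p = 0.00131). Both were called on the bipolar scale too, at 2.43 ± 0.73 and 3.05 ± 0.73. Asmt differed from LED light by -1.16 ± 0.21 (adjusted p = 0.000641), and by -1.85 ± 0.24 on the bipolar scale. For Bhlhe41 the differences were -0.49 ± 0.13 from blue (adjusted p = 0.00945) and -0.54 ± 0.13 from LED light (adjusted p = 0.00519), and both were called on the bipolar scale. The bipolar scale moves the median gene by -0.33 for the difference from blue and -0.68 for that from LED light, so negative differences are larger there by construction. For Bhlhe41 the call from blue light was lost on both FPKM scales (adjusted p = 0.0646 on each) and without the 3 in-between libraries (-0.50, adjusted p = 0.0567).

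For Dbp the differences were 0.64 ± 0.11 from blue (adjusted p = 0.000450) and 0.37 ± 0.11 from LED light (adjusted p = 0.0241), the second lost without Hal1000 replicate 2, Hal200 replicate 3, LED1000 replicate 1 or 2, or LED200 replicate 3 (adjusted p = 0.0509 to 0.0687). Tef differed by 0.32 ± 0.10 from blue (adjusted p = 0.0325, lost in 9 of the 21 fits that leave out 1 library) and 0.47 ± 0.10 from LED light (adjusted p = 0.00266). Hlf differed by 0.66 ± 0.09 (adjusted p = 5.37e-05) and 0.76 ± 0.09 (adjusted p = 1.50e-05), Bhlhe40 by 0.46 ± 0.11 (adjusted p = 0.00420) and 0.55 ± 0.11 (adjusted p = 0.000988), in each case from blue and then from LED light. Ciart differed from blue light by 0.57 ± 0.20 (adjusted p = 0.0445), lost in 13 of those 21 fits. Without the 3 in-between libraries Dbp from LED light (adjusted p = 0.122), Tef from blue (adjusted p = 0.132) and Ciart from blue light (adjusted p = 0.183) were not called, nor were they with only the compared groups (adjusted p = 0.0631, 0.0572 and 0.0763). Ciart also lost its call with DESeq2 size factors, without a filter on low counts and without the lens-rich libraries (adjusted p = 0.0524 to 0.0566). Of these 9 differences the bipolar scale kept the call of Hlf from blue light alone, at 0.33 ± 0.12, and turned the sign of Dbp and Bhlhe40 from LED light and of Tef from both.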

How the results depend on the processing

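Over 108 results for single members and 32 settings, 3263 of 3447 values kept their side of the threshold with no change of sign in a called value, 95 lost the call and 70 gained it. In 19 a value called on at least 1 of the 2 scales changed sign, all 19 with the bipolar markers held level. Fits without 1 library, which share most of their data with the main fit, gave 2205 of the 3263 unchanged values. On the bipolar scale only 54 of the 108 results were unchanged, while 25 lost the call, 10 gained it and 19 changed sign. Scaling limits the values of Dbp, Tef, Hlf, Nfil3, Ciart and Bhlhe40. It also limits those of Asmt in LED1000 and in the difference from the blue level effect, and of Bhlhe41 in Hal200. Aanat is limited by its 2 to 171 counts per library, and in Blue1000 and LED1000 by scaling too. Its difference between Hal1000 and Hal200 ran from 1.13 (log2(FPKM + 1)) to 3.18 (without Hal200 replicate 1) over all settings, with adjusted p from 3.69e-07 to 0.00523. Where a value moved, the cause was not tested.

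Among values called on either scale, the sign changed with the bipolar markers level for Dbp in Blue1000 (-0.10), LED200 (-0.00563) and the difference from the LED level effect (-0.31). For Tef it changed in Hal1000 (-0.12), Blue1000 (-0.15), Blue200 (-0.0674), LED1000 (-0.00337), LED200 (-0.11), Hal1000 against Hal200 (-0.10) and the differences from blue (-0.0201) and LED light (-0.21). It changed for Ciart in Hal1000 (-0.17), LED200 (-0.43) and the difference from LED light (-0.62), for Bhlhe40 in Blue1000 (-0.0552), LED200 (-0.0289) and the difference from LED light (-0.13), for Hlf in Blue1000 (-0.0930), and for Nfil3 in the difference from LED light (-0.64). Values called on neither scale also changed sign, among them Dbp (-0.02), Tef (-0.02), Hlf (-0.06) and Ciart (-0.06) in Hal200 and Ciart in Blue1000 (-0.32). Members called on that scale numbered 4 in Hal1000, 3 in Blue1000, 3 in Blue200 and 3 in LED1000 against control, 3 in Hal1000 against Hal200, 1 in LED1000 against LED200, 4 for halogen minus blue and 5 for any difference. Shares of all genes called higher and lower there were 5.22% and 54.8% in Hal1000 and 4.76% and 55.2% in Blue1000. They were 4.65% and 50.8% in Blue200 and 8.56% and 43.6% in LED1000. For Hal1000 against Hal200 they were 1.74% and 44.1%, for LED1000 against LED200 6.76% and 0.125%, and for halogen minus blue 0.962% and 25.8%.

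In Hal200 against control the 2 members called became 5 with DESeq2, 5 with voom quality weights, 4 with log2(FPKM + 1), 4 with log2(FPKM + 0.1), 3 on the bipolar scale, 3 without the lens-rich libraries, 0 without the in-between libraries (7 unadjusted), 0 with only the compared groups (5 unadjusted), and 0 to 4 without 1 library. The 1897 genes called there became 4750 with voom quality weights, 3075 on the bipolar scale, 3028 without the lens-rich and 993 without the in-between libraries, 0 with only the compared groups (3544 unadjusted), and 402 to 3184 without 1 library. DESeq2 called 2519.

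Between LED levels DESeq2 called 1 member and voom 3. The 11 genes called between LED levels (2332 unadjusted) became 171 with DESeq2, 3 with the replicate block, 1158 with voom, 1102 on the bipolar scale, 66 without the lens-rich libraries, 0 without the in-between libraries (1579 unadjusted) and 3 to 44 without 1 library. The 2 genes called between blue levels (861 unadjusted) became 17 with DESeq2, 1 on each FPKM scale, 64 with voom, 1 on the bipolar scale, 0 without the in-between libraries (429 unadjusted), 0 with only the compared groups (633 unadjusted) and 0 to 9 without 1 library. For halogen minus blue, voom called 5394 genes, and without the in-between libraries 1867 genes and 4 members were called. For halogen minus LED, voom called 5470 genes, the bipolar scale 8570, and 1924 were called without the in-between libraries. With only the compared groups the 7-group test has no value of its own.

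Replicate numbers did not pair the libraries. Same-numbered libraries of different groups had a mean correlation of -0.00365 over 63 pairs, and 6 of 21 libraries correlated best with their own number. With the replicate block, Aanat in Hal1000 against Hal200 was 2.84 (adjusted p = 0.000698), Aanat in Blue200 against control was called (adjusted p = 0.0485) and the difference of Tef from the blue level effect was not (adjusted p = 0.0515).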
